A study of Mus musculus with 2 samples.

Results

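The 8 genes described here encode enzymes, and 1 helper protein, that turn arachidonic acid into prostaglandins and leukotrienes. They are *Ptgs1*, *Ptgs2*, *Ptges*, *Hpgds* and *Ptgds* on the prostaglandin side and *Alox5*, *Alox5ap* and *Lta4h* on the leukotriene side. Members were the rows of the deposited count matrices that carry these symbols, and 8 of 33696 rows did so, 1 row per gene. The list was chosen for how these genes differed between the libraries, so that every value below is a description. The cells were CD45+ cells of the thalamus of C57B6/J mice. The study's reporting summary gives an age of 12 weeks for the mice of all strains it lists. The thalamus was taken on day 21 after cortical ablation injury (CAI), a surgical removal of cortex that all mice of both groups had received. The groups differed in what was injected into the thalamus between day 7 and day 19, which was normal rat IgG (control Ab) or a blocking antibody to the tetraspanin CD9 (anti-CD9 Ab), both at 1.0 µg/µl. Each antibody is represented by 1 library of unique molecular identifier (UMI) counts. The methods give 4 pooled mice for a thalamus library and do not repeat the number for these groups. Antibody, pool of mice and library cannot be told apart, and no test between groups was possible. Intervals are 95% intervals that cover counting error only, except the bounds of medians over genes, which are marked where given.

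Prostaglandins are made when phospholipases free arachidonic acid from membranes and cyclooxygenase (COX) converts it to prostaglandin H2, which terminal synthases turn into individual mediators. COX-1 is present in many resting cells and is prominent in microglia, whereas COX-2 is induced by inflammatory signals. Leukotrienes are made by 5-lipoxygenase with its activating protein, mainly in myeloid cells, and leukotriene B4 is a strong attractant of neutrophils.

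The control Ab library held 12245 barcodes and 38042608 UMIs, the anti-CD9 Ab library 15173 barcodes and 40825201 UMIs. Limits of 200 to 7500 genes and 2% mitochondrial counts kept 7467 and 9162 cells, with medians of 1880 and 1419 UMIs. A total of 54 barcode sequences occurred in both libraries, 18 of them among kept cells. Clustering without the members gave 25 clusters. Marker genes named 18 of them, and names are written as "-like". The macrophage-like class was a single cluster in which the monocyte list had the largest share of raised markers. It was named from the markers among its leading genes. The class counts that bear on the members differed strongly between the libraries. There were 65 and 2634 neutrophil-like cells, 217 and 1283 macrophage-like cells, 1941 and 851 microglia-like cells, and 2759 and 886 T cell-like cells (control Ab first, as in the pairs of values below unless libraries or clusters are named otherwise). The microglia-like counts depended on integration of the libraries. Without it, the microglia-like clusters held 1040 and 106 cells and 867 and 81 cells. An unnamed cluster led by *Ccl12*, *Cxcl13* and *Gm4951* then held 116 and 664 cells, and the microglia list had its largest share of raised markers. *Ptprc*, which encodes CD45, was found in 12.9% of astrocyte-like and 17.6% of oligodendrocyte-like cells with control Ab, against 73.5% of microglia-like cells, and its level was 140 and 238 CPM against 509 CPM. CPM, the unit of all levels, is UMIs of a gene per 1000000 UMIs, from UMIs summed over the cells of a class.

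*Ptgs2* and *Ptges*, which were both higher with anti-CD9 Ab over all cells, lie on different chromosomes and shared, of the motifs searched in their promoters, the GC box. RefSeq promoter sequences (GRCm38.p6, 250 bases before to 50 bases after the annotated start) were found for 7 of 8 members, all but *Alox5ap*. The 250 bases before the start are printed 5′ to 3′ on the gene's strand for these genes, with motif matches in capitals, because they are the members with the largest ratios. The *Ptgs2* stretch is chr1:150099781-150100030 (+ strand) and the *Ptges* stretch is chr2:30903298-30903547 (− strand).
Ptgs2: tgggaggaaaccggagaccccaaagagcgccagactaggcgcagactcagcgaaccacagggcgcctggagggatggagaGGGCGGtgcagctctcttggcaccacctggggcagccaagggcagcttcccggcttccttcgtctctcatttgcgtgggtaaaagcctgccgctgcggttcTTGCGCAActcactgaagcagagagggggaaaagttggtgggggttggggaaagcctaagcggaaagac
Ptges: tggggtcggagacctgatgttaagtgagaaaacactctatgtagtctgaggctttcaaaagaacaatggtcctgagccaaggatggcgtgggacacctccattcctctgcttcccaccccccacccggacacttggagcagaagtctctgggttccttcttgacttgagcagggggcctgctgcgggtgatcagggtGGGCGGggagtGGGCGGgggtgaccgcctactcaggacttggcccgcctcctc
The motifs searched on both strands were the TATA box (TATAAA), the E-box (CACGTG), the core of the cAMP response element (CGTCA), a C/EBP site (TTNCGCAA), the GC box (GGGCGG) and the NF-kB site, listed by name. The capitals in *Ptgs2* are a GC box that begins 170 bases before the start and a C/EBP match that begins 69 bases before it. A C/EBP match was present in 0.798% of the 32851 promoters in the table. The 50 bases after the start of *Ptgs2*, not printed, held a cAMP response element core and an E-box, whose letters overlap. These motifs were present in 20.8% and 7.15% of all promoters. The capitals in *Ptges* are GC boxes beginning 53 and 42 bases before the start, a motif found in 35.7% of all promoters, and no other searched motif was in its window. No TATA box or NF-kB match was in either window (13.6% and 8.46% of all promoters). *Alox5* had a GC box and *Ptgds* an NF-kB match, and none of the motifs was found for *Ptgs1*, *Hpgds* or *Lta4h*.

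Over all kept cells, *Ptgs2*, *Ptges* and *Alox5ap* were higher with anti-CD9 Ab, while *Ptgs1*, *Hpgds* and *Ptgds* were lower. *Ptgs2* was nearly absent with control Ab (17 UMIs, 0.682 CPM) and reached 1979 UMIs (87.3 CPM) with anti-CD9 Ab (log2 ratio 7.0, 6.31 to 7.69). *Ptges* went from 3.81 to 52.7 CPM (log2 ratio 3.79, 3.49 to 4.09), and *Alox5ap* from 130 to 397 CPM (1.61, 1.56 to 1.67). *Ptgds* went from 109 to 11.3 CPM (−3.28, −3.46 to −3.09), *Ptgs1* from 125 to 37.7 CPM (−1.73, −1.84 to −1.62) and *Hpgds* from 283 to 97.3 CPM (−1.54, −1.61 to −1.47). *Lta4h* and *Alox5* stayed within 2-fold, at 36.6 and 24.8 CPM and at 12.2 and 15.0 CPM. Thus 3 of 8 members were at least 2-fold higher and 3 at least 2-fold lower, beside 7.41% and 21.6% among all 15136 genes that had 50 UMIs or more. The median gene was lower by this scaling (log2 ratio −0.37), so that *Lta4h* (−0.56) lay close to it. In a mixture of cells, more cells of a type and more RNA per cell cannot be told apart from these totals.

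The cell mix was then held fixed. With the anti-CD9 Ab level of each class weighted by the control Ab library's share of UMIs in that class, the all-cell level of *Ptgs2* would be 24.7 CPM and that of *Ptges* 21.7 CPM, between the measured values of both libraries. For *Alox5ap* it would be 175 CPM, near the 130 CPM of control Ab. The reverse exchange, control Ab levels in the anti-CD9 Ab mix, gave 361 CPM of *Alox5ap* beside the measured 397, but 4.61 CPM of *Ptgs2* beside 87.3. For *Ptges* the reverse exchange gave 6.4 CPM beside 52.7. The exchange takes each class as a whole, and the macrophage-like class itself held unlike sub-clusters in both libraries (below), so that levels inside a class and its make-up were not separated. The same holds for the unnamed clusters, exchanged as a pooled class with *Ptgs2* at 0.973 and 94.4 CPM. Among them, the cluster with the most control Ab cells held 351 and 217 cells. The cluster with the most anti-CD9 Ab cells held 37 and 1206. *Hpgds* and *Ptgs1* stood at 222 and 82.7 CPM at the control Ab mix, between their values in both libraries. *Ptgds* stood at 18.4 CPM, close to the anti-CD9 Ab value. A class with very few cells in one library, such as the 65 neutrophil-like cells, carries its counting error into these values.

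**Figure D1:**
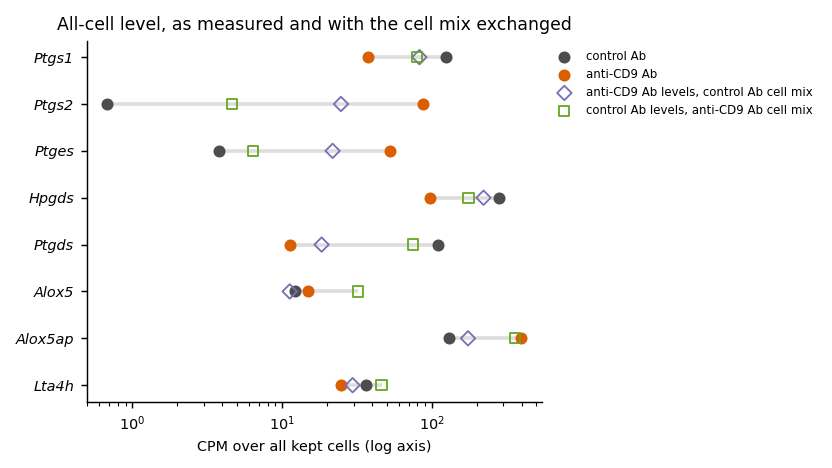
All-cell CPM (log axis) of each gene in each library (filled circles), and with the cell mix exchanged between the libraries (open symbols). With control Ab levels in the anti-CD9 Ab mix, *Alox5ap* comes near its measured level (361 and 397 CPM) and *Ptgs2* does not (4.61 and 87.3 CPM).

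**Figure D2:**
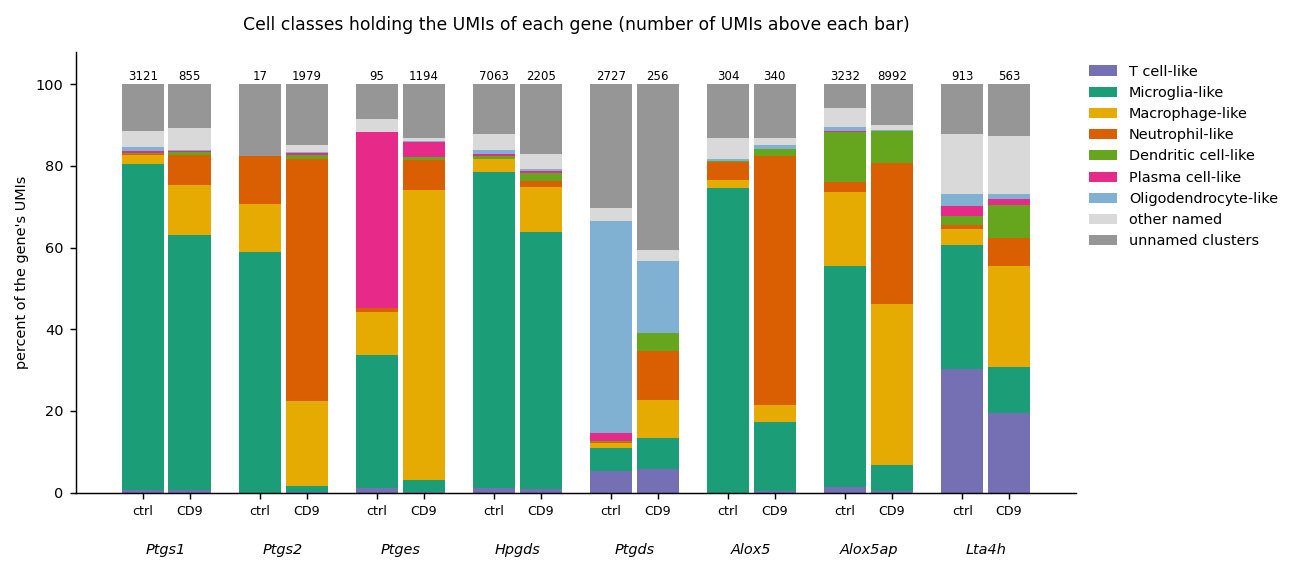
Percent of each gene's UMIs held by each cell class, in the control Ab (ctrl) and anti-CD9 Ab (CD9) library, with the number of UMIs above each bar. *Ptgs1* and *Hpgds* lie mostly in microglia-like cells in both libraries. With anti-CD9 Ab, *Ptgs2* and *Alox5* lie mostly in neutrophil-like cells (59.2% and 60.9%) and *Ptges* in macrophage-like cells (71.2%). *Alox5ap* then lies mainly in neutrophil-like and macrophage-like cells (34.6% and 39.4%).

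*Ptgs1*, the gene of COX-1, was a microglial gene in both libraries. Microglia-like cells held 79.8% and 62.5% of its UMIs. Its level there was 232 CPM (223 to 242) and 175 CPM (161 to 191), a log2 ratio of −0.41 (−0.54 to −0.27). The microglia markers were lower in these cells too, with all 12 detected in both libraries and a summed level of 14697 and 9271 CPM, and their part in the microglial values of the members was not tested. After each cell was thinned to 1000 UMIs, 21.9% (20 to 23.8%) of 1901 and 15.3% (12.9 to 17.9%) of 832 microglia-like cells held a *Ptgs1* UMI, and 56.8% and 42.1% did without thinning. In T cell-like cells, which should lack most of these transcripts, the thinned share was 0.496% and 0.369%. Median depths were 3155 and 3352 UMIs in microglia-like cells and 1545 and 2147.5 UMIs in T cell-like cells. The lower level was seen in both microglia-like clusters, from 326 to 229 CPM in the cluster led by *Siglech* and *P2ry12* and from 177 to 123 CPM in the cluster led by *Lpl*, *Spp1* and *Cst7*. In macrophage-like cells *Ptgs1* was at 51.4 and 15.4 CPM. There the microglia markers moved the same way, with all 12 detected in both libraries and a summed level of 4110 and 880 CPM, and their part in the result was not tested. In the macrophage-like sub-cluster with most control Ab cells the direction was the opposite, at 8.07 and 16.2 CPM from 5 and 16 UMIs (log2 ratio 1.01, −0.44 to 2.45). Over all macrophage-like cells the log2 ratio was −1.74 (−2.17 to −1.31), and it turned to 0.20 with a mitochondrial limit of 5%, 0.81 without integration of the libraries and 0.73 when each cell was assigned from its own markers. A sub-cluster of mostly predicted doublets (61.3%, below) held 45 of the 73 control Ab UMIs of *Ptgs1* in this class. With anti-CD9 Ab it held 12 of 105. No direction is therefore given for *Ptgs1* in macrophage-like cells.

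*Ptgs2*, the gene of the inducible COX-2, had at most 10 UMIs in any class with control Ab. Its 17 UMIs there comprised 10 in microglia-like cells, 2 each in neutrophil-like and macrophage-like cells and 3 in unnamed clusters. With anti-CD9 Ab, neutrophil-like cells held 59.2% of its UMIs at 359 CPM (339 to 380), macrophage-like cells held 20.9% at 60.6 CPM (54.9 to 66.7), and unnamed clusters 15.0%. Neutrophil-like cells were the highest named class, with an interval that overlapped no other. Macrophage-like cells had the next value, but the intervals of B cell-like (20.7 to 86.1 CPM), astrocyte-like (11.5 to 107.9 CPM), oligodendrocyte-like (10.0 to 94.0 CPM) and NK cell-like cells (18.5 to 59.4 CPM), from 4 to 13 UMIs each, overlapped theirs. *Ptgs2* thinned to 1000 UMIs per cell was found in 20.8% (18.9 to 22.7%) of 1782 neutrophil-like cells and 4.05% (3.03 to 5.29%) of 1260 macrophage-like cells, beside 0.123% (0.00311 to 0.683%) of T cell-like cells, and without thinning in 20.5%, 11.8% and 0.339%. With control Ab, 0 of 215 thinned macrophage-like cells had a UMI, an interval of 0 to 1.70%. The log2 ratio in macrophage-like cells was 5.43 (3.42 to 7.43), with 2 UMIs in the control Ab library. These UMIs lay in a sub-cluster of mostly predicted doublets (61.3%, below). In neutrophil-like cells it was 3.72 (1.72 to 5.72), from 2 UMIs at a control Ab depth of 73346 UMIs in all, which limits this value.

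Microglia-like cells had 0.933 and 8.52 CPM of *Ptgs2*, from 10 and 26 UMIs, and all 26 were in the cluster led by *Lpl*, *Spp1* and *Cst7*. The anti-CD9 Ab level (5.57 to 12.5 CPM) lies below those of NK cell-like (34.7 CPM) and B cell-like cells (45.3 CPM) of the same library. It lies above that of T cell-like cells (1.90 CPM, 0.517 to 4.86). Its interval overlaps that of oligodendrocyte-like cells (36.7 CPM, 10.0 to 94.0). Whether these UMIs are expression by microglia was not tested. The neutrophil markers, all 12 detected in both libraries, were also higher in microglia-like cells with anti-CD9 Ab, at a summed 533 and 1242 CPM, and their part was not tested. Per 100 UMIs of *S100a9*, *Ptgs2* stood at 2.21 and 2.56 UMIs in microglia-like cells, at 0.0568 and 1.70 in neutrophil-like cells and at 0.820 and 25.4 in macrophage-like cells. The control Ab values rest on 10, 2 and 2 UMIs of *Ptgs2*. In macrophage-like cells the summed neutrophil markers were at 479 and 904 CPM, against 44889 CPM in neutrophil-like cells with anti-CD9 Ab.

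**Figure D3:**
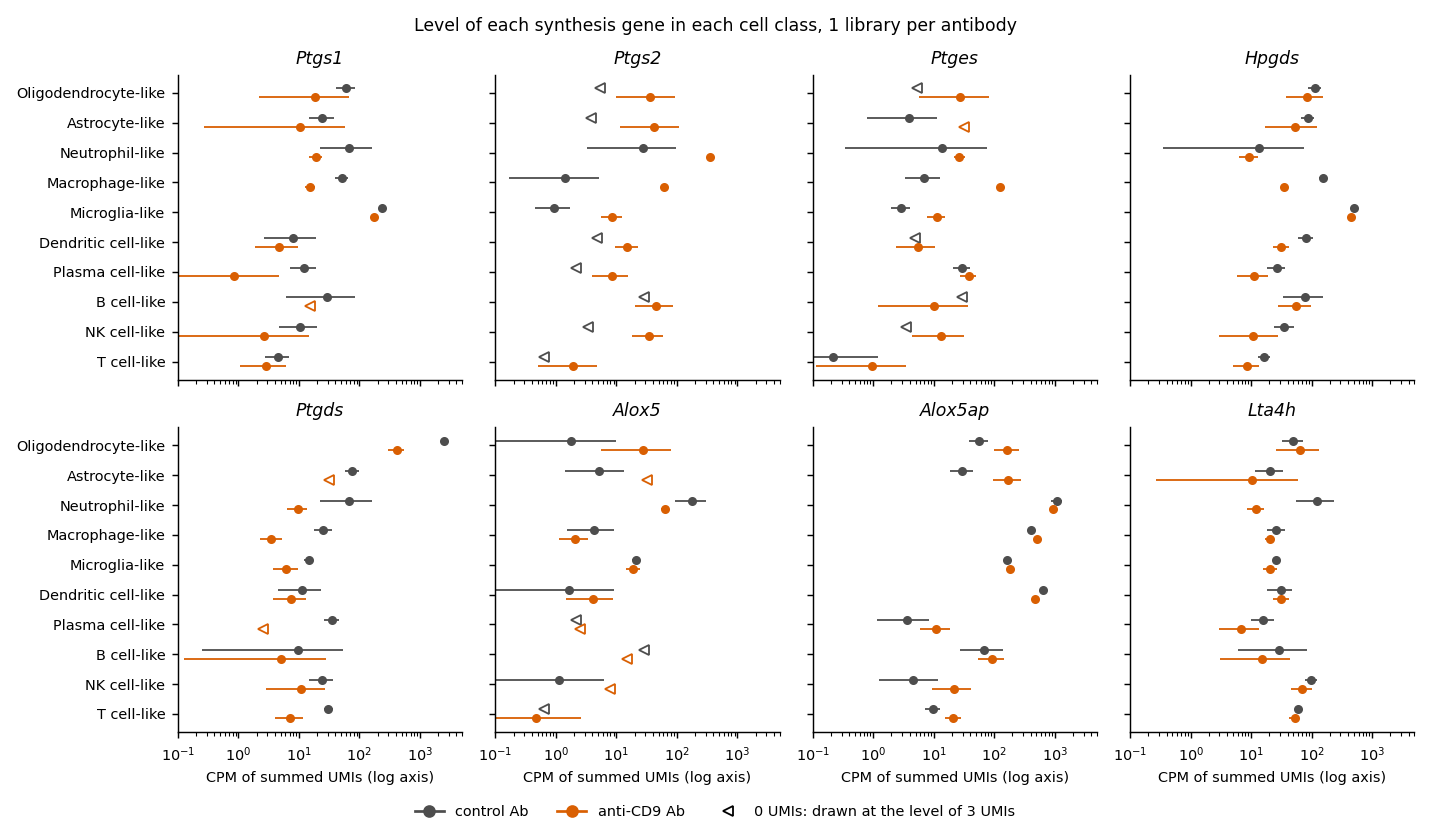
CPM (log axis) of each gene in each cell class with control Ab (grey) and anti-CD9 Ab (orange), with exact 95% Poisson intervals, cut at the left edge, and open triangles at the level of 3 UMIs where a class had 0. *Ptgs2* stands highest in neutrophil-like cells with anti-CD9 Ab (359 CPM), and *Ptgds* in oligodendrocyte-like cells with control Ab (2499 CPM).

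*Ptges* encodes microsomal prostaglandin E synthase-1, which acts after COX-2. With anti-CD9 Ab it lay mainly in macrophage-like cells, which held 71.2% of its 1194 UMIs. It went there from 7.04 CPM (3.37 to 12.9) to 124 CPM (116 to 133), a log2 ratio of 4.14 (3.24 to 5.04). The thinned share of macrophage-like cells with a UMI was 0.465% (0.0118 to 2.56%) of 215 and 7.38% (6.0 to 8.97%) of 1260, and the unthinned share 4.15% and 24.0%. In T cell-like cells it was 0 of 2421 and 0.123%. Neutrophil-like cells had 26.6 CPM (21.3 to 32.9) with anti-CD9 Ab, below macrophage-like cells. Plasma cell-like cells had *Ptges* in both libraries, at 29.2 and 37.9 CPM (log2 ratio 0.38, −0.23 to 0.99), and with control Ab they held 43.2% of the 95 UMIs of this gene. This was the highest value of the classes with control Ab, but the intervals of neutrophil-like cells (1 UMI) and B cell-like cells (0 UMIs in 30 cells, up to 35.8 CPM) overlapped it.

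In microglia-like cells *Ptges* went from 2.89 to 11.1 CPM (1.95, 1.24 to 2.65), from 31 and 34 UMIs. The difference was seen in the cluster led by *Lpl*, *Spp1* and *Cst7* (3.70 to 20.6 CPM) and not in the cluster led by *Siglech* and *P2ry12* (6 and 2 UMIs, 1.51 and 1.34 CPM, log2 ratio −0.18, −2.49 to 2.13). In the former, 12.6% of cells were predicted doublets, and in the latter 2.19%. Without predicted doublets the log2 ratio over all microglia-like cells was 0.54. *Saa3*, a leading gene of the macrophage-like cluster, also had UMIs in microglia-like cells of both libraries. Per 100 UMIs of *Saa3*, *Ptges* stood at 0.864 and 0.683 UMIs in macrophage-like cells and at 1.71 and 0.291 in microglia-like cells. The microglial ratio was thus the higher with control Ab and the lower with anti-CD9 Ab. Whether RNA of macrophages had a part in the microglial value was not tested.

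The levels of *Ptgs2* and *Ptges* differed between parts of the macrophage-like class. Macrophage-like cells were divided into 7 sub-clusters, of which 2 were mostly predicted doublets (61.3% and 90.3%). With anti-CD9 Ab, the sub-cluster led by *Cxcl11*, *Cxcl10* and *Mxd1* had the highest *Ptgs2* level, 442 CPM (383 to 507), and 249 CPM (206 to 299) of *Ptges*. The sub-cluster led by *Saa3*, *Lcn2* and *Ccl5*, of which *Saa3* and *Lcn2* are acute-phase genes, had 65.2 CPM (55.4 to 76.1) of *Ptgs2* and 260 CPM (240 to 281) of *Ptges*, the interval of which overlaps that of the former. These sub-clusters held 117 and 426 cells with anti-CD9 Ab but only 1 and 8 cells with control Ab, so that little can be compared between the libraries within them. In the *Saa3* sub-cluster *Ptges* had 0 UMIs with control Ab, an interval of up to 92.7 CPM. With 3 UMIs set in place of 0, its level with anti-CD9 Ab would be 3.45-fold higher. In the sub-clusters led by *Ifitm1* and *Ccr2*, by *Tmem176b* and *Tmem119*, and by *Spp1*, *Gpnmb* and *Fabp5*, *Ptgs2* lay between 1.99 and 9.17 CPM and *Ptges* between 9.97 and 16.2 CPM with anti-CD9 Ab.
The sub-cluster led by *Spp1* and *Gpnmb* held most control Ab cells (103 cells, and 182 with anti-CD9 Ab) and so allows the closest comparison of like with like. In it *Ptgs2* had 0 and 4 UMIs, too few for a ratio, and *Ptges* was at 6.45 and 16.2 CPM (log2 ratio 1.33, −0.25 to 2.91). Among macrophage-like cells thinned to 1000 UMIs, 25.5% (14.3 to 39.6%) of the 51 cells with *Ptgs2* also had *Ptges*, against 6.62% (5.28 to 8.17%) of the 1209 cells without it. In neutrophil-like cells the shares were 2.97% (1.49 to 5.26%) and 2.05% (1.38 to 2.94%), with overlapping intervals. The macrophage-like shares pool sub-clusters with unlike levels of both genes. In the *Cxcl11* sub-cluster with anti-CD9 Ab, 3 of the 24 thinned cells with *Ptgs2* also had *Ptges*, beside 17 of all 114 (14.9%). In the *Saa3* sub-cluster 9 of the 19 thinned cells with *Ptgs2* did, beside 66 of all 407 (16.2%). Cells with *Ptgs2* thus had *Ptges* more often than the whole sub-cluster in the latter and not in the former, from few cells.

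**Figure D4:**
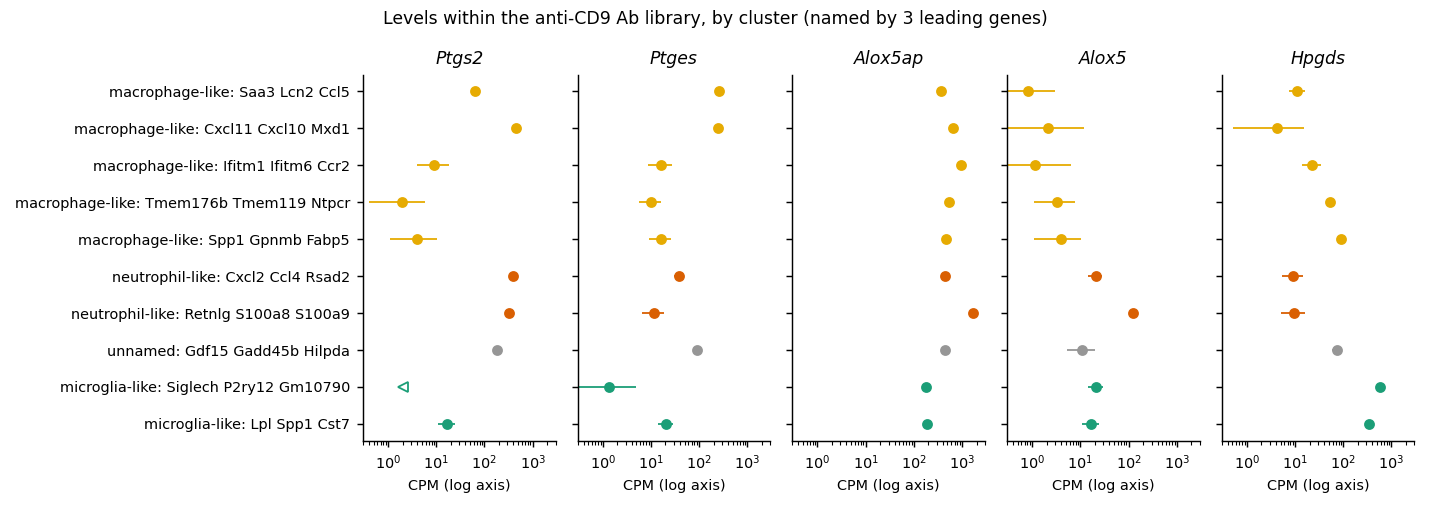
CPM (log axis, exact 95% Poisson intervals) of 5 members in sub-clusters and clusters of the anti-CD9 Ab library, named by leading genes; the open triangle marks 0 UMIs, drawn at the level of 3. *Ptgs2* and *Ptges* are high in the *Saa3* and *Cxcl10* sub-clusters of macrophage-like cells, and *Alox5* in the *Retnlg* cluster of neutrophil-like cells (122 CPM).

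*Hpgds* encodes the hematopoietic prostaglandin D synthase, and, like *Ptgs1*, had most of its UMIs in microglia-like cells. These held 77.5% and 63.0% of its UMIs, at 511 CPM (498 to 525) and 455 CPM (432 to 480), a log2 ratio of −0.17 (−0.25 to −0.08). The next named classes with control Ab were cycling cells at 255 CPM (217 to 297), then macrophage-like cells at 154 CPM (134 to 176) and oligodendrocyte-like cells at 113 CPM (86.9 to 144), of which the intervals of the last pair overlap. The thinned share of microglia-like cells was 42.1% (39.9 to 44.3%) and 36.2% (32.9 to 39.5%), beside 1.45% and 0.491% of T cell-like cells, and the unthinned share 77.9% and 69.1%. The microglia markers in microglia-like cells were lower as well, as given for *Ptgs1*. In macrophage-like cells *Hpgds* went from 154 to 35.6 CPM (log2 ratio −2.12, −2.38 to −1.85), beside the lower microglia markers given above. The sub-cluster with 61.3% predicted doublets held 86 of its 219 control Ab UMIs there and 7 of its 243 anti-CD9 Ab UMIs. The sub-cluster with 90.3% held 19 and 15. In the sub-cluster led by *Spp1* and *Gpnmb*, which had the most *Hpgds* among the sub-clusters not mostly doublets with anti-CD9 Ab, it was 123 and 91.1 CPM (−0.43, −0.87 to 0.01). Thinned microglia-like cells with a *Ptgs1* UMI had *Hpgds* as often as those without it with control Ab (41.8%, 37.0 to 46.7%, and 42.2%, 39.6 to 44.7%), and in 44.9% (36.1 to 54.0%) and 34.6% (31.1 to 38.3%) with anti-CD9 Ab, where the intervals overlap.

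*Ptgds* encodes the lipocalin-type prostaglandin D synthase, an oligodendrocyte and meningeal transcript. Oligodendrocyte-like cells held 52.0% of its 2727 UMIs in the control Ab library, but 17.6% of 256 after anti-CD9 Ab. Its level in them was 2499 CPM (2371 to 2633) and 413 CPM (301 to 553), a log2 ratio of −2.60 (−3.02 to −2.17) from 307 and 96 cells. The other oligodendrocyte markers were similar in these cells, at a summed 9471 and 8621 CPM with 10 of 10 detected, while the neutrophil markers were at 187 and 5307 CPM with 9 and 11 of 12 detected. Their part in the lower *Ptgds* level was not tested. After thinning, 43.0% (35.2 to 51.1%) of 158 and 16.1% (5.45 to 33.7%) of 31 oligodendrocyte-like cells had a UMI. Thinning left out 149 and 65 of these cells. Unnamed clusters held another 30.4% and 40.6% of the UMIs. In microglia-like cells *Ptgds* was at 14.5 and 6.23 CPM and in macrophage-like cells at 25.3 and 3.51 CPM. T cell-like cells had 30.7 CPM (25.9 to 36.1) and 7.12 CPM (3.98 to 11.7). The microglia-like interval with control Ab (12.3 to 16.9 CPM) lay below theirs, and the others overlapped theirs in the same library. No value lay above that of T cell-like cells, so these values were read as background.

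*Alox5*, the gene of 5-lipoxygenase, was sparse, with 304 and 340 UMIs. Its UMIs lay in microglia-like cells with control Ab (74.7%) and in neutrophil-like cells with anti-CD9 Ab (60.9%). The level per cell class did not follow that exchange: it was 21.2 CPM (18.5 to 24.1) and 19 CPM (14.4 to 24.6) in microglia-like cells (log2 ratio −0.16, −0.57 to 0.26, and −1.91 without integration), and 177 CPM (94.4 to 303) and 63.4 CPM (55.1 to 72.6) in neutrophil-like cells (−1.48, −2.29 to −0.67). T cell-like cells had 0 and 1 UMI. In the microglia-like cluster led by *Siglech* and *P2ry12*, *Alox5* went from 35.8 to 21.4 CPM (−0.74, −1.30 to −0.19), and in the cluster led by *Lpl* from 12.6 to 16.7 CPM (0.41, −0.22 to 1.04). The neutrophil-like value mixes clusters of unlike content. With control Ab 51 of 65 cells were in the cluster led by *Retnlg*, *S100a8* and *Cxcr2*, and with anti-CD9 Ab 1396 of 2634 were in the cluster led by *Cxcl2*, *Ccl4* and *Rsad2*. In the *Retnlg* cluster alone *Alox5* was at 219 and 122 CPM, from 13 and 168 UMIs (−0.85, −1.66 to −0.03).

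*Alox5ap* encodes the 5-lipoxygenase activating protein and was found in all 4 myeloid classes in both libraries. With anti-CD9 Ab it stood at 953 CPM (920 to 987) in neutrophil-like, 519 CPM (502 to 536) in macrophage-like, 474 CPM in dendritic cell-like and 183 CPM (168 to 198) in microglia-like cells. With control Ab it stood at 1077 CPM (853 to 1342), 412 CPM (380 to 447), 642 CPM and 163 CPM (156 to 171) in the same classes. The levels within each of these classes differed by less than 2-fold, with log2 ratios of −0.18 (−0.50 to 0.15), 0.33 (0.20 to 0.46), −0.44 (−0.62 to −0.26) and 0.16 (0.02 to 0.30), and the last of these turned to −0.24 without integration. The share of *Alox5ap* UMIs in microglia-like cells was 54.1% and 6.19%. With anti-CD9 Ab, neutrophil-like and macrophage-like cells held 34.6% and 39.4%. *Alox5ap* was also higher with anti-CD9 Ab in classes that are not myeloid. Examples are T cell-like (9.65 and 20.9 CPM), astrocyte-like (29.6 and 169 CPM) and oligodendrocyte-like cells (56.4 and 165 CPM). In these examples the summed neutrophil and macrophage markers were higher too, and their part was not tested. Thinned T cell-like cells had *Alox5ap* in 0.909% and 2.21%, and thinned neutrophil-like cells with anti-CD9 Ab in 42.5% (40.2 to 44.9%). Without thinning, 49.9% of neutrophil-like and 4.18% of T cell-like cells with anti-CD9 Ab had a UMI.

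Within the anti-CD9 Ab library, the neutrophil-like clusters carried the leukotriene genes at unlike levels. The cluster led by *Retnlg*, *S100a8* and *Cxcr2* had 1656 CPM of *Alox5ap*, 122 CPM of *Alox5* and 21.7 CPM of *Lta4h*, and the cluster led by *Cxcl2*, *Ccl4* and *Rsad2* had 437, 20.7 and 4.78 CPM. The log2 ratios of the latter to the former were −1.92 (−2.04 to −1.81), −2.55 (−3.06 to −2.05) and −2.18 (−3.26 to −1.11). *Ptgs2* was of like size in both (317 and 390 CPM, 0.30, 0.13 to 0.47), and *Ptges* was higher in the *Cxcl2* cluster (11.6 and 37.7 CPM, 1.70, 0.92 to 2.49). *Ptgs1* went with the leukotriene genes, at 38.3 and 4.78 CPM. The clusters were defined from the same cells, so that these differences are descriptions of them. In thinned neutrophil-like cells, 69.6% (59.1 to 78.7%) of the 92 cells with *Alox5* also had *Alox5ap*, against 41.1% (38.7 to 43.5%) of the 1690 cells without. These shares pool both clusters, which differed in the same direction for *Alox5* and *Alox5ap*, and shares within a cluster were not computed. A further cluster of 866 cells with anti-CD9 Ab and 4 with control Ab, led by *Gdf15*, *Gadd45b* and *Hilpda* and not named, had 181 CPM of *Ptgs2*, 92.5 CPM of *Ptges* and 454 CPM of *Alox5ap*.

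*Lta4h*, the gene of the hydrolase that makes leukotriene B4, was higher in NK cell-like and T cell-like cells than in microglia-like and macrophage-like cells. NK cell-like cells had 98.5 and 69.5 CPM and T cell-like cells 59.4 CPM (52.6 to 66.9) and 52.2 CPM (42.9 to 62.9), against 25.8 and 20.7 CPM in microglia-like and 26.0 and 20.3 CPM in macrophage-like cells. The log2 ratios were −0.19 (−0.51 to 0.13) in T cell-like, −0.32 (−0.71 to 0.08) in microglia-like and −0.36 (−0.88 to 0.17) in macrophage-like cells, all with intervals that include 0, and the last turned to 0.29 when each cell was assigned from its own markers. Neutrophil-like cells had 9 UMIs with control Ab (123 CPM) and 39 with anti-CD9 Ab (11.9 CPM), a log2 ratio of −3.36 (−4.41 to −2.32). The 9 UMIs came from 3 of 65 cells, and the class mixes clusters of unlike content, as given for *Alox5*. *Lta4h* was too sparse after thinning to tell whether it went with *Alox5ap*, which acts before it, in the same cell. In thinned neutrophil-like cells with anti-CD9 Ab, 1.85% (1.01 to 3.08%) of the 758 cells with *Alox5ap* had *Lta4h*, against 0.488% (0.159 to 1.14%) of the 1024 without. Over all cells with control Ab the order was the opposite, at 2.24% (1.08 to 4.08%) and 4.19% (3.70 to 4.73%), as it was in macrophage-like cells with anti-CD9 Ab, at 1.87% (0.859 to 3.52%) and 2.95% (1.88 to 4.4%). The intervals overlap in each pair.

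In microglia-like cells 7 of 8 members had at least 50 UMIs. Of these, 1 was at least 2-fold lower (*Ptgds*, read as background) and 1 at least 2-fold higher (*Ptges*, which was not when predicted doublets were left out or in the largest cluster, as given above), where 4.43% and 3.21% of the 11127 genes tested were. The median log2 ratio of the 7 was −0.17 (−0.54 to 0.08, the medians of the bounds), and that of all genes 0.01. In macrophage-like cells 7 members had at least 50 UMIs. Of these, 3 were at least 2-fold lower (*Hpgds*, *Ptgds*, read as background, and *Ptgs1*, the direction of which turned under the alternatives given above) and 2 at least 2-fold higher (*Ptgs2* and *Ptges*), where 6.43% and 7.91% of the 9148 genes tested were. Their median was −0.36 (−0.88 to 0.17, again the medians of the bounds), and that of all genes −0.02. The choice of members used these differences, so that nothing is read from the counts.

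**Figure D5:**
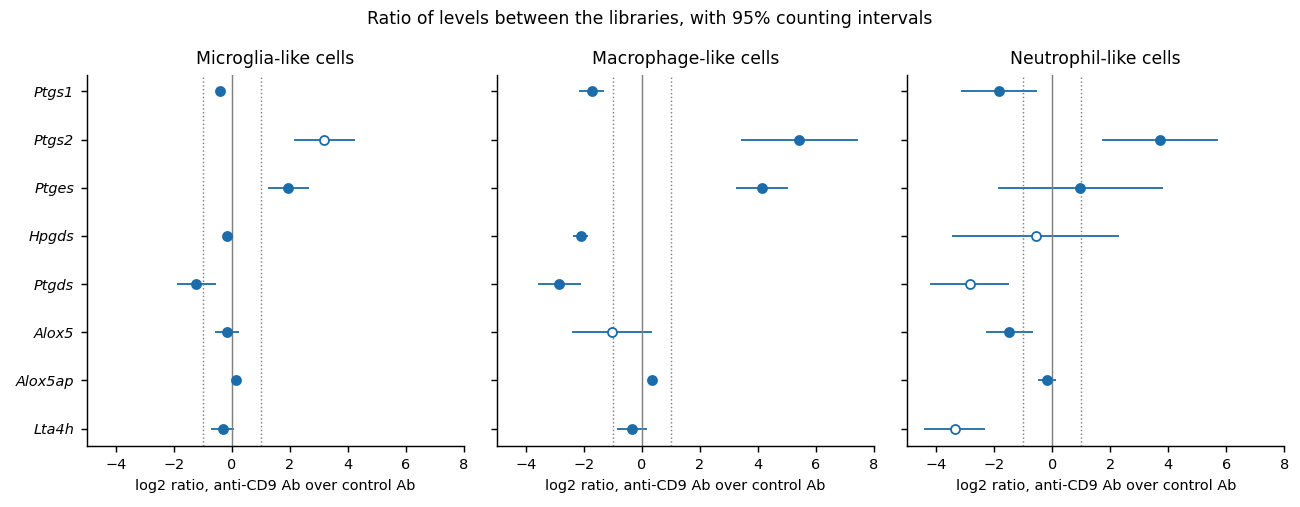
Log2 ratio of the anti-CD9 Ab to the control Ab level of each gene in 3 classes, with 95% counting intervals; filled points have at least 50 UMIs over both libraries, and dotted lines mark 2-fold. In macrophage-like cells *Ptgs2* (5.43) and *Ptges* (4.14) are higher and *Hpgds*, *Ptgds* and *Ptgs1* lower (*Ptgs1* turned under other assignments of cells), while *Alox5ap* stays near 0 in all 3 classes.

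The other genes of the pathway were read from a list of 52, of which 51 were in the tables. In microglia-like cells 25 had at least 50 UMIs, of which 3 were at least 2-fold lower and 0 higher, beside 4.43% and 3.21% of all genes tested. Their median log2 ratio was −0.06. All 6 measured terminal synthases beside the members stayed within 2-fold. *Tbxas1*, the thromboxane synthase and the pathway gene with the most UMIs, was at 453 and 446 CPM (−0.02, −0.11 to 0.06). The lowest ratios were those of *Hpgd*, the dehydrogenase that inactivates prostaglandins (265 to 77.4 CPM, −1.78, −1.97 to −1.58), *Ltc4s*, the leukotriene C4 synthase (195 to 82.9 CPM, −1.23, −1.42 to −1.04), and *Mgll*, a lipase that supplies arachidonic acid (63.6 to 30.5 CPM, −1.06, −1.37 to −0.75). The highest were *Abcc4*, a prostaglandin exporter (23.8 to 44.3 CPM, 0.90, 0.59 to 1.20), *Pla2g4a*, the cytosolic phospholipase A2 (189 to 317 CPM, 0.75, 0.63 to 0.86), and *Ptger4*, the prostaglandin E2 receptor EP4 (19.8 to 31.5 CPM, 0.67, 0.32 to 1.02).
In macrophage-like cells 24 pathway genes had at least 50 UMIs. Of these, 3 were at least 2-fold lower and 4 at least 2-fold higher, beside 6.43% and 7.91% of all genes tested. Their median was −0.30. The lowest were *Ltc4s* (54.9 to 4.39 CPM, −3.64, −4.25 to −3.04), *Hpgd* (47.2 to 4.10 CPM, −3.52, −4.16 to −2.89) and *Daglb*, a diacylglycerol lipase (120 to 32.8 CPM, −1.88, −2.16 to −1.59). These 3 were higher in microglia-like than in macrophage-like cells with control Ab, and went with the microglia markers above. The highest were *Abcc4* (22.5 to 63.8 CPM, 1.50, 0.98 to 2.02), *Ltb4r1*, the leukotriene B4 receptor (14.8 to 31.2 CPM, 1.08, 0.43 to 1.72), and *Abcc1*, a leukotriene exporter (29.6 to 61.3 CPM, 1.05, 0.60 to 1.51). *Cysltr1*, the receptor of cysteinyl leukotrienes with the most UMIs, was the other 2-fold higher gene (33.8 to 68.3 CPM). *Ltb4r1* was highest in T cell-like cells in both libraries, at 167 CPM (156 to 179) and 173 CPM (155 to 191). Neutrophil-like cells had 123 CPM (56.1 to 233) from 9 UMIs with control Ab, which overlaps, and 71.1 CPM (62.2 to 80.8) with anti-CD9 Ab.

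Likeness of pattern was measured as Pearson's r of log2(CPM + 10) over 12 points, the 6 classes with at least 100 cells in each library, among genes with at least 200 UMIs. The points share their libraries and depths, neutrophil-like cells were not among them, and r is a description. The genes most like *Ptgs1* were *Abcd2*, *Epm2a* and *Gal3st4* (0.99 each). *Ptgs2* was most like *Nos2* (0.93), *Inhba* and *Wfdc21* (0.92 each), and *Ptges* most like *Vegfa* (0.97), *Ralgds* (0.83) and *Creg2* (0.82). *Alox5ap* was most like *Dynlt2b*, *Ifi30* and *Rab32* (0.98 each), and *Lta4h* most like *Zfp212*, *2300009A05Rik* (0.97 each) and *Csnk1g2* (0.96). These neighbours changed with the points used. Over the 16 points from 10 classes that had 100 cells or more in a library, neutrophil-like cells with anti-CD9 Ab included, *Ptgs2* was most like *Wfdc21* (0.97), *Upp1* and *Slfn4* (0.96 each), and *Ptges* most like *Ly6a2* (0.84), *Slpi* and *Creg2* (0.79 each). Of the genes named from 12 points, *Gal3st4*, *Wfdc21*, *Creg2*, *Dynlt2b* and *Rab32* were again among the nearest 3 of the same member, and none of those of *Lta4h* was.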

How the data were processed

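Single-cell libraries were made from CD45+ thalamic cells, 1 library per antibody. The deposited matrices hold raw UMI counts per gene and barcode, made by the authors with Cell Ranger 8.0.0 (submitters' processing notes, which list GRCm39). The study's methods name another version and build. Cells with 200 to 7500 genes and at most 2% mitochondrial counts were kept, integrated with Seurat 5.3.0 in R 4.3.3 (2000 variable genes without the pathway genes, 30 components, resolution 0.8) and clustered. Doublets were scored from simulated neighbours at 0.8% per 1000 barcodes, marked and not removed, except in an alternative. Classes needed at least 3 and 50% of a fixed marker list, limits set after the data were seen. UMIs were summed per class and library and given as counts per 1000000 UMIs, with exact Poisson and Clopper-Pearson intervals and normal-approximation intervals of log2 ratios (Python 3.11.15, SciPy 1.17.1, tested on simulated data). "Called" means at least 2-fold with at least 50 UMIs over both libraries. Shares were computed after thinning to 1000 UMIs, leaving out shallower cells. In neutrophil-like cells 44 of 65 and 852 of 2634 cells were left out. A count of 0 was set to 3 UMIs for bounds. Members and lists were chosen with earlier results of these data known. Named pathway genes were those with the lowest and highest ratios per class and the most UMIs per list; leading genes of clusters and sub-clusters were named after their values were seen. Depth was 38042608 and 40825201 UMIs. Alternatives were other filters, integration, assignment, weighting, thinning and doublet removal. The genes most like *Hpgds*, *Ptgds* and *Alox5* in pattern are not reported here.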

Additional observations from a re-analysis of the deposited data

Results flagged for a closer look

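The barcodes with more than 2% and up to 5% mitochondrial counts, 4223 and 5293 in the control Ab and the anti-CD9 Ab library, were left out of the values above except those with a mitochondrial limit of 5%. In them *Ptgs2* was at 19.1 CPM with anti-CD9 Ab and 1.04 CPM with control Ab (log2 ratio 4.20, 3.37 to 5.03). *Ptges* was at 26.6 and 2.16 CPM (3.62, 3.04 to 4.20). *Alox5ap* was at 255 and 102 CPM (1.33, 1.23 to 1.42). All 3 were above the control Ab level, in the direction seen in the kept cells. *Ptgds* (log2 ratio −4.08), *Ptgs1* (−1.34), *Hpgds* (−1.15) and *Lta4h* (−0.51) were lower with anti-CD9 Ab, as in the kept cells. *Alox5* was at −0.20 (−0.62 to 0.23), beside 0.30 in the kept cells. These barcodes come from the libraries by which the members were chosen, so that the like direction is a description. The mix of classes among these barcodes was not examined.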

How the results depend on the processing

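No paired analysis was possible because each antibody had 1 library. The median log2 ratio of the members in macrophage-like cells, −0.36, was 0.20 with a mitochondrial limit of 5%, 0.52 without integration and 0.29 with each cell assigned from its markers. *Ptgs1* in these cells (−1.74) turned to 0.20, 0.81 and 0.73 under the same alternatives and to 1.01 in the sub-cluster with the most control Ab cells, an alternative chosen after seeing the data. Over all kept cells the median of the members, −0.13, was 0.27 with cells weighted equally and 0.24 when centred on the median of all genes. *Ptges* in microglia-like cells (1.95) turned to −0.18 in the largest cluster, also chosen after seeing the data. The causes were not tested. *Ptgs2* stayed higher under every alternative that gave a ratio (7 in macrophage-like and 9 in neutrophil-like cells), at 3.73 to 6.03 in macrophage-like and 3.24 to 3.99 in neutrophil-like cells, as did *Ptges* in macrophage-like cells (1.33 to 4.72). *Hpgds* stayed lower in microglia-like (−0.29 to −0.06) and macrophage-like cells (−2.19 to −0.43). Ratios near 0 changed sign for *Alox5ap* in microglia-like cells (−0.24 at the lowest), *Alox5ap* in neutrophil-like cells (0.47 at the highest) and *Lta4h* in macrophage-like cells (0.29 at the highest). With 65 neutrophil-like cells in the control Ab library, depth limits every ratio in that class.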
